A study of Mus musculus with 12 samples.

Results

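The 7 small proline-rich genes Sprr1a, Sprr1b, Sprr2d, Sprr2e, Sprr2f, Sprr2g and Sprr2k rose steeply in embryonic mouse skin that lacked either the type I or the type II keratins. They were taken by symbol, with every probe annotated to them. Each had 1 probe, so they make up 7 of the 16593 named genes and 7 of the 25697 probes on the array, and 7 of 7 passed the filter on dim probes. Their signals on the log2 scale were at least 8-fold higher in each knockout than in its own wild type. Sprr2e, Sprr2f, Sprr2g and Sprr2k were detected on all 6 knockout arrays and on 0 of 6 wild-type arrays.

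RNA of back skin from C57BL/6 mouse embryos at E18.5, shortly before birth, was measured on 12 Illumina bead arrays in 4 groups of 3: type I keratin knockout (KO), wild type I, type II keratin KO and wild type II. Each knockout was set against the wild type of its own series, all groups sharing the strain and tissue. How the keratin genes were deleted, and in which cells, is not given in the labels. Nor do they state that replicate arrays came from separate embryos, so a p-value here rests on array-to-array spread that may be technical.

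Small proline-rich (SPRR) proteins are short, proline-rich precursors of the cornified envelope, the protein shell that replaces the plasma membrane of dying keratinocytes at the skin surface. Transglutaminases cross-link them to loricrin, involucrin and each other. Sprr genes sit side by side in the epidermal differentiation complex, and many of them are low in resting epidermis between hair follicles and induced where epidermis is stressed, wounded or inflamed. Type I and type II keratins pair to form the intermediate filaments of the same cells.

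The deleted keratins matched the labels. Krt14, a type I keratin of the basal layer, was not detected on any type I KO array and was at least 583-fold lower there than in wild type I. Krt5, its type II partner, was not detected on any type II KO array and was at least 49.8-fold lower than in wild type II. The suprabasal keratins did the same: Krt10 (type I) fell by 9.81 ± 0.46 on the log2 scale in the type I KO, where 1 of 3 arrays still detected it, and Krt1 (type II) was at least 69.6-fold lower in the type II KO. Between 13272 and 13693 probes were detected per array, and arrays of a group correlated at 0.962 to 0.991 over the genes tested.

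In the RefSeq order of mouse chromosome 3 the genes lie in 1 run between Prr9 and Ivl (involucrin): Sprr2a1, Sprr2a2, Sprr2a3, Sprr2b, Sprr2c-ps, Sprr2d, Sprr2e, Sprr2f, Sprr2g, Sprr2h, Sprr2i, Sprr2j-ps, Sprr2k, Sprr1b, Sprr3, Sprr1a and Sprr4. RefSeq promoter entries were matched for 6 of the 7 genes, all but Sprr2g. The 250 bases before each transcript start are shown because they are the stretch in which these co-rising genes can be compared letter by letter. They are written 5′ to 3′ on the gene's own strand, from GRCm38.p6. Capitals mark an AP-1 motif (TGAGTCA or TGACTCA), an octamer motif (ATTTGCAT or ATGCAAAT) or a TATA box (TATAAA). Sprr1a lies at chr3:92485882-92486131 and Sprr1b at chr3:92438780-92439029, both on the minus strand. On the plus strand are Sprr2d at chr3:92338890-92339139, Sprr2e at chr3:92351893-92352142, Sprr2f at chr3:92364937-92365186 and Sprr2k at chr3:92432332-92432581.
Sprr1a: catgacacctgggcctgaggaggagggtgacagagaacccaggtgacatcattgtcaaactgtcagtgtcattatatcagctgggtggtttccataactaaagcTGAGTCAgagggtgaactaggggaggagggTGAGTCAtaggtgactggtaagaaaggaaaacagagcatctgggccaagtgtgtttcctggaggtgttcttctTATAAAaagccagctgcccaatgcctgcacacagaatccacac
Sprr1b: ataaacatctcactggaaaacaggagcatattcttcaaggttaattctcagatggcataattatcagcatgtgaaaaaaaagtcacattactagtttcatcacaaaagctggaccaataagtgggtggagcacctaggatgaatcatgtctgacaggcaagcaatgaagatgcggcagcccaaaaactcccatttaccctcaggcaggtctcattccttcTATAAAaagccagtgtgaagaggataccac
Sprr2d: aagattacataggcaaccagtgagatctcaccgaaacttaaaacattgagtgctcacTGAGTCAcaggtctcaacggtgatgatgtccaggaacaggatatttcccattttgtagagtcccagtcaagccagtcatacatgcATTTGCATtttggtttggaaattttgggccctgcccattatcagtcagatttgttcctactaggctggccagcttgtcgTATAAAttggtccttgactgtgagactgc
Sprr2e: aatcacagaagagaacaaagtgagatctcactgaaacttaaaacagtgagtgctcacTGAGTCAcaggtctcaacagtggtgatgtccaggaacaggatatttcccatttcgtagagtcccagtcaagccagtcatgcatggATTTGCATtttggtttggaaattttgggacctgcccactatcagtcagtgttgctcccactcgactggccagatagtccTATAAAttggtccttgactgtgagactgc
Sprr2f: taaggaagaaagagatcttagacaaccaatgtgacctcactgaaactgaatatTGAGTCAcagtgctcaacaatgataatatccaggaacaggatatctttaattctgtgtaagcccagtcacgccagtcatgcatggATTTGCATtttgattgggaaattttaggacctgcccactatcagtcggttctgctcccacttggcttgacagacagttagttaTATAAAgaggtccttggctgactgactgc
Sprr2k: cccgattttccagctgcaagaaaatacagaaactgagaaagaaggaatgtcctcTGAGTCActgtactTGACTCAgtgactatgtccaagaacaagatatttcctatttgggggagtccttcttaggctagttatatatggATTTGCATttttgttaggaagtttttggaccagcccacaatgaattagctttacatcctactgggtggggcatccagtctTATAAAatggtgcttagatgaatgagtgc

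The Sprr2 promoters resembled each other to different degrees. Sprr2d and Sprr2e had 89.3% identical bases in a global alignment of these windows and Sprr2e and Sprr2f 73.9%, while Sprr2k had 62.2% to 67% with these 3. Between Sprr1a and Sprr1b the identity was 55.9%, and between a Sprr1 and a Sprr2 promoter it was 47.7% to 52.3%. The promoter of Sprr2a1, an Sprr2 gene outside the 7, had 50.2% to 52.8% with the 4 Sprr2 promoters shown. All 4 Sprr2 promoters held an AP-1 motif, an octamer motif and a TATA box in that order. In Sprr2d and Sprr2e these began at positions -193, -108 and -29 from the start. Sprr2k held a second AP-1 motif.

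Motifs were searched on both strands, the TATA box on the gene's strand only, in the 250 bases before the start. An AP-1 motif was found in 5 of 6 windows (not Sprr1b, and 2 copies in Sprr1a). It was found in 4.46% of all 32851 RefSeq mouse promoter windows, searched over the same stretch. An octamer motif was found in 4 of 6, against 1.6%, and a TATA box in 6 of 6, against 7.59%. The core of the antioxidant response element (TGACNNNGC or GCNNNGTCA) was found in Sprr1a, where it overlaps an AP-1 motif, and in Sprr2f, against 10.2% of all windows. The interferon response element (GAAA, 2 bases of any kind, GAAA, or the same on the other strand) was in 0 of 6, against 2.98%. Among 5 other Sprr genes with an entry, the AP-1 and the octamer motif were each in 2 (Sprr2b and Sprr2i) and the TATA box in 3 (those and Sprr3), while Sprr2a1 and Sprr4 held none of the 5 motifs. Since Sprr2 promoters share sequence, these counts are not independent of each other, and a match describes letters and shows no binding.

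**Figure D1:**
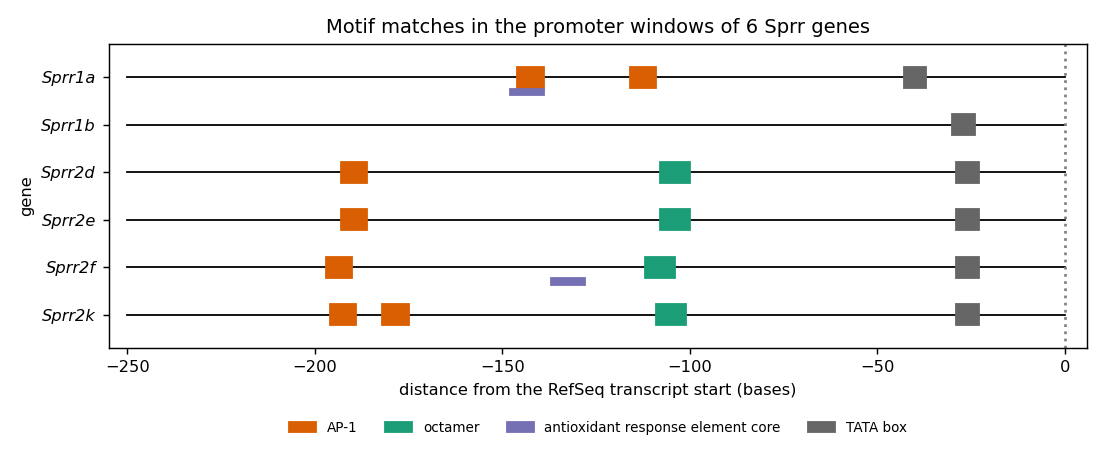
Motif matches in the promoter windows of 6 Sprr genes, by distance in bases from the RefSeq transcript start (dotted line). The 4 Sprr2 genes share an AP-1, an octamer and a TATA box match at nearly the same distances, whereas Sprr1b holds only the TATA box.

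In wild-type skin the 7 genes fell into 3 that were measured and 4 that were not. Sprr1a, Sprr1b and Sprr2d were detected on all 12 arrays. Sprr2e, Sprr2f, Sprr2g and Sprr2k lay at log2 signals of 4.29 to 4.9 on the 6 wild-type arrays, below the lowest detected signal of 4.94 to 5.02. For these 4 genes a change is given as a lower bound, the knockout mean over the mean of the lowest detected signals of the wild-type arrays, and written "at least". These 4 genes passed the filter on dim probes through knockout arrays alone, so that they differ is not independent of their being tested. All signals are log2 values after background correction and quantile normalization, and since each probe has its own response, the level of 1 gene is not set against that of another.

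The comparison of the type I KO with its wild type asks how skin without type I keratins expresses these envelope precursors. All 7 genes rose (adjusted p under 0.05 in a limma model over all genes, n = 3 arrays per group), while 12.2% of the 11163 genes tested rose in this comparison. On 7 of 7 genes every type I KO array lay above every wild type I array, which 18.4% of all genes also showed. The members' median change was 6.13 on the log2 scale with the 4 bounds in place of fitted values (6.74 as fitted), against a median of -0.11 over all genes.

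Sprr1a, the Sprr1 gene also known from regenerating neurons, had log2 signals of 11.67, 11.91 and 11.4 in the type I KO, against 6.98, 6.22 and 6.55 in wild type I. The groups were far apart compared with their SDs of 0.25 and 0.38. Sprr1a rose 33.8-fold (5.08 ± 0.24 on the log2 scale, limma adjusted p = 6.16e-08).

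Sprr1b, likewise an envelope precursor of stratified epithelia, stood at 13.99, 13.91 and 13.87 in the type I KO, against 7.4, 8.09 and 8.86 in wild type I. The knockout arrays were nearly equal, with an SD of 0.06, while the wild-type arrays spread with an SD of 0.73. Its rise was 56-fold (5.81 ± 0.5, adjusted p = 1.03e-05).

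Sprr2d had signals of 14.39, 14.6 and 14.56 in the type I KO, against 8.91, 8.83 and 11 in wild type I, where replicate 3 was well above the other 2 arrays. Its rise of 30.7-fold (4.94 ± 0.61, adjusted p = 0.000158) was 5.64 ± 0.54 on the log2 scale without that array. Before normalization, Sprr2d reached 84.9%, 100% and 95.5% of the brightest probe's signal on the type I KO arrays, against 2.11%, 2.24% and 8.37% on the wild type I arrays. It was thus the brightest of all 25697 probes on 1 knockout array, and whether its probe was near saturation was not tested.

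Sprr2g, an Sprr2 family envelope precursor, had the highest lower bound of the 4 genes that wild-type skin left undetected. Its signals were 13.23, 13.35 and 13.49 in the type I KO, against 4.75, 4.4 and 4.73 in wild type I, which puts it at least 332-fold higher (adjusted p = 4.28e-12). Sprr2e stood at 11.59, 11.89 and 12.53 in the type I KO and at 4.54, 4.48 and 4.85 in wild type I, at least 130-fold higher (adjusted p = 2.52e-07). The wild-type arrays of both genes were all below detection.

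Sprr2f, known in mice for its strong induction by oestrogen in the uterus, had signals of 11.14, 11.22 and 11.69 in the type I KO, against 4.34, 4.35 and 4.35 in wild type I. It was at least 82.7-fold higher (adjusted p = 6.14e-10). Sprr2k, the last Sprr2 gene before Sprr1b, stood at 10.86, 11.67 and 10.82 in the type I KO and at 4.29, 4.41 and 4.42 in wild type I. That is at least 70.1-fold higher (adjusted p = 8.76e-06), with 1 knockout array above the other 2.

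**Figure D2:**
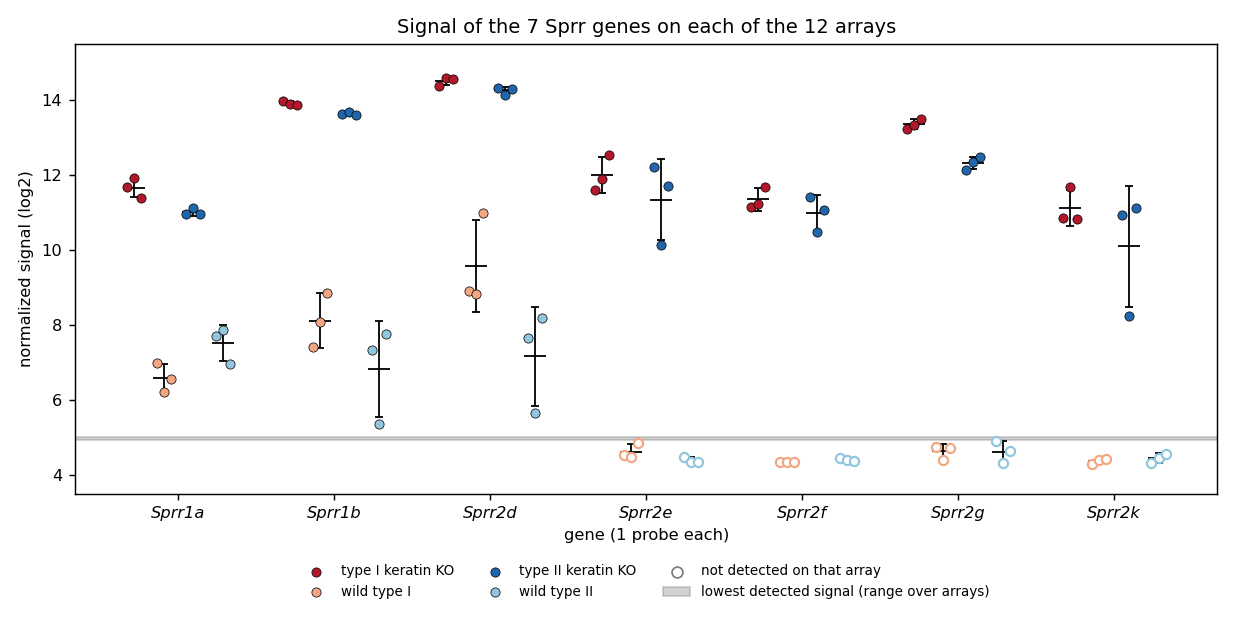
Normalized log2 signal of the 7 Sprr genes on each of the 12 arrays, by group (3 points each, with mean and SD); open circles were not detected and the grey band is the lowest detected signal, 4.94 to 5.02. All 6 knockout points of each gene lie above all 6 wild-type points, and the 4 genes at the right have open circles only in both wild types.

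The same genes rose when the type II keratins were missing. In the type II KO 7 of 7 were called higher (n = 3 arrays per group), against 15.7% of all genes, and on 7 of 7 every type II KO array lay above every wild type II array, against 19.9% of all genes. The members' median change was 6.39 on the log2 scale with bounds (6.82 as fitted), against -0.08 over all genes. Rises of at least 8-fold that passed the test made up 0.6% of all genes in the type I KO and 0.636% in the type II KO. The 7 members were among them in both, also with bounds in place of fitted values.

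Sprr1a had signals of 10.97, 11.13 and 10.95 in the type II KO, against 7.71, 7.86 and 6.97 in wild type II. Its rise of 11.3-fold (3.5 ± 0.24, adjusted p = 1.59e-06) was the smallest of the 7, also against the other members' lower bounds. The knockout arrays lay close together and well clear of the wild type.

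Sprr1b stood at 13.62, 13.69 and 13.61 in the type II KO, against 7.34, 5.36 and 7.77 in wild type II, a rise of 113-fold (6.82 ± 0.5, adjusted p = 2.57e-06). Sprr2d stood at 14.33, 14.15 and 14.31 in the type II KO, against 7.65, 5.66 and 8.18 in wild type II, a rise of 137-fold (7.1 ± 0.61, adjusted p = 8.52e-06). Replicate 2 of wild type II was the low array for both genes. Without it the rises were 6.11 ± 0.32 for Sprr1b and 6.37 ± 0.51 for Sprr2d on the log2 scale.

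Sprr2g had signals of 12.15, 12.35 and 12.48 in the type II KO, against 4.9, 4.33 and 4.64 in wild type II, at least 165-fold higher (adjusted p = 7.6e-11). Sprr2f stood at 11.41, 10.48 and 11.07 in the type II KO, against 4.45, 4.39 and 4.37 in wild type II, at least 65.2-fold higher (adjusted p = 2.77e-09). Both were again undetected in every wild-type array.

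Sprr2e and Sprr2k were uneven across the type II KO arrays. Sprr2e had signals of 12.21, 10.13 and 11.7 in the type II KO, against 4.48, 4.34 and 4.35 in wild type II, at least 83.6-fold higher (adjusted p = 5.64e-07). Sprr2k had 10.93, 8.24 and 11.12 in the type II KO, against 4.32, 4.45 and 4.57 in wild type II, at least 35.2-fold higher (adjusted p = 2.59e-05). Replicate 2 of the knockout was low for both. Without it the fitted rises were 7.59 ± 0.25 for Sprr2e and 6.6 ± 0.22 for Sprr2k on the log2 scale, against 6.96 and 5.65 with it. The lowest knockout array still lay far above the wild-type arrays.

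**Figure D3:**
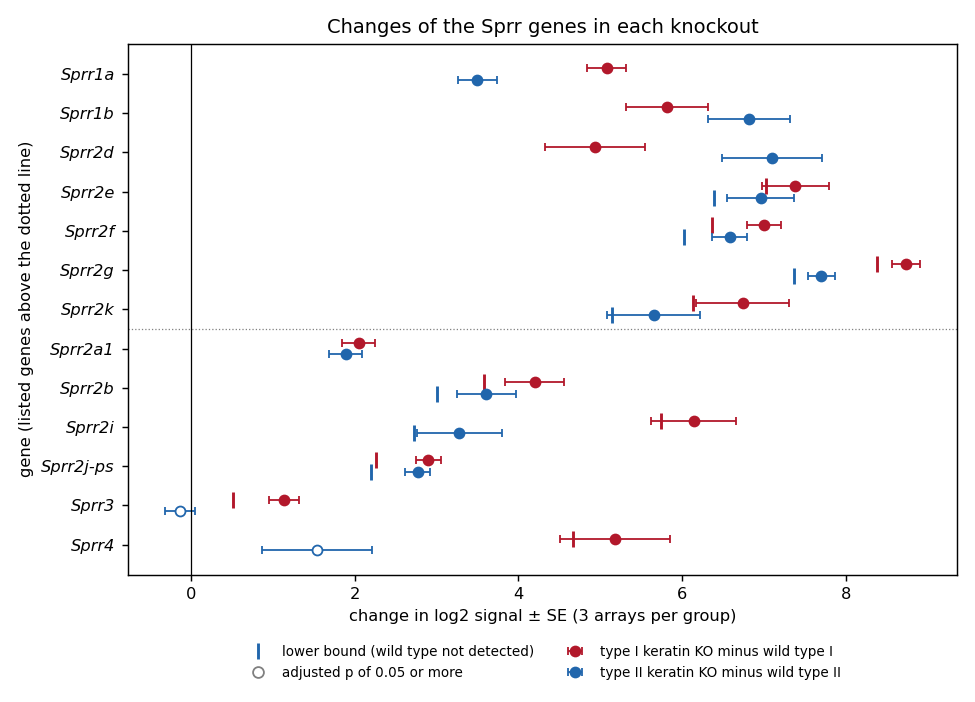
Fitted change in log2 signal ± SE of each Sprr gene in the type I KO (red) and the type II KO (blue) against its own wild type, 3 arrays per group; vertical ticks are lower bounds where the wild type was not detected and open points had an adjusted p of 0.05 or more. The 7 listed genes above the dotted line all rose in both knockouts, from 3.5 for Sprr1a in the type II KO upwards, whereas Sprr3 and Sprr4 passed the threshold in the type I KO and not in the type II KO.

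Whether the knockouts differed was tested as the type II change minus the type I change. Sprr1a rose less in the type II KO, with a difference of -1.58 ± 0.34 on the log2 scale (limma adjusted p = 0.0296). For Sprr2g the fitted difference was -1.03 ± 0.23 (adjusted p = 0.036). Sprr2g was not above background in either wild type, so its changes are known as bounds only and the fitted difference rests on the knockout levels, 12.33 ± 0.17 in the type II KO and 13.36 ± 0.13 in the type I KO. These 2 of 7 compare with 3.05% of all genes. Both calls were unsteady. For Sprr1a the adjusted p was 0.0641 to 0.0882 without replicate 2 or 3 of wild type I, 1 or 2 of the type I KO, 1 or 2 of wild type II, or 1 of the type II KO. For Sprr2g it was 0.0525 to 0.1 without any 1 of the 6 type I series arrays, replicate 1 or 3 of wild type II, or replicate 1 of the type II KO.

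The differences of the other 5 genes did not pass the test. They were 1.01 ± 0.71 for Sprr1b (adjusted p = 0.522), 2.16 ± 0.87 for Sprr2d (0.234), -0.42 ± 0.59 for Sprr2e (0.776), -0.42 ± 0.3 for Sprr2f (0.517) and -1.09 ± 0.81 for Sprr2k (0.546). With standard errors of this size a difference of several fold between the knockouts could have gone undetected for Sprr1b, Sprr2d and Sprr2k. Of these, Sprr2e, Sprr2f and Sprr2k were likewise below background in both wild types. Without replicate 2 of the type II KO, Sprr2e changed sign to 0.19 ± 0.34 and Sprr2k had -0.16 ± 0.3. Without replicate 2 of wild type II, Sprr1b had 0.28 ± 0.43 and Sprr2d 1.41 ± 0.68, and without replicate 3 of wild type I Sprr2d had 1.45 ± 0.72.

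The wild types of the series bear on these differences. Wild type II minus wild type I was 0.93 ± 0.24 for Sprr1a (adjusted p = 0.085), -1.29 ± 0.5 for Sprr1b (0.219) and -2.42 ± 0.61 for Sprr2d (0.0783), so 0 of 7 genes passed the limma test (at an unadjusted p under 0.05, 1 was higher and 2 were lower), against 1.54% of all genes. Without replicate 3 of wild type II the Sprr1a difference was 1.21 and passed (adjusted p = 0.0379). The 4 other members were undetected in both wild types. The 2 series and any batch that separates them cannot be told apart.

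The array held 6 further Sprr genes, and 6 of 6 rose in the type I KO and 4 of 6 in the type II KO, against 12.2% and 15.7% of all genes. Sprr2b, Sprr2i, Sprr2j-ps and Sprr3 passed the filter on dim probes through knockout arrays alone, and Sprr4 would not have passed without them. That these genes differ is thus not independent of their being tested. Sprr2a1, an Sprr2 gene detected in all wild-type skin on its brighter probe, rose least of the Sprr2 coding genes: 4.14-fold in the type I KO (2.05 ± 0.2, adjusted p = 2.32e-05) and 3.71-fold in the type II KO (1.89 ± 0.2, adjusted p = 3.52e-05). Sprr2b, undetected in wild type, was at least 12-fold higher in the type I KO (adjusted p = 9.22e-06) and at least 8.05-fold in the type II KO (2.33e-05). The pseudogene Sprr2j-ps was at least 4.78-fold higher in the type I KO (adjusted p = 9.16e-08) and at least 4.58-fold in the type II KO (2.16e-07). No probe was annotated to Sprr2a2, Sprr2a3, Sprr2c-ps or Sprr2h, and because probe sequences were not used here, cross-hybridisation among these related genes and the pseudogene was not tested.

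Sprr2i, Sprr3 and Sprr4 had unequal values in the knockouts. Sprr2i had signals of 11.53, 11.47 and 9.18 in the type I KO, at least 53.7-fold above wild type I (adjusted p = 8.36e-06), and of 8.47, 7.49 and 7.12 in the type II KO, at least 6.63-fold above wild type II (0.000535). The difference of its changes was -2.87 ± 0.73 (adjusted p = 0.0599) and did not pass. Sprr3, best known from the oesophagus and other internal stratified epithelia, was at least 1.43-fold higher in the type I KO (adjusted p = 0.000835) and undetected on all 6 arrays of the type II series. Sprr3 entered the test only through its 3 type I KO arrays, at 5.96, 5.08 and 5.44. Its fitted difference of -1.27 ± 0.25 (adjusted p = 0.0198, with 0.0598 without replicate 1 and 0.0516 without replicate 3 of wild type II) thus rests on 9 arrays below background and is not read as a call.

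Sprr4, the Sprr gene at the involucrin end of the run, had signals of 9.23, 9.43 and 10.28 in the type I KO, against 4.51, 4.44 and 4.45 in wild type I, at least 25.4-fold higher (adjusted p = 0.000226). In the type II KO its signals were 5.81, 8.72 and 5.11, against 4.94, 5.18 and 4.89 in wild type II (1.54 ± 0.67, adjusted p = 0.0929). Only replicate 2 of the type II KO was high, the array that was low for Sprr2e and Sprr2k, and without it the Sprr4 change was 0.46 ± 0.28 (adjusted p = 0.243). Without replicate 3 of that knockout the Sprr4 change was 2.27 and passed the test (adjusted p = 0.0143). Its difference between the knockouts, -3.64 ± 0.95, did not pass (adjusted p = 0.065).

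The knockout arrays did not rank alike for all members. Over all 12 arrays the 7 genes correlated pairwise at 0.86 to 1 (Pearson r, median 0.97, 21 pairs), over points that share the step between wild type and knockout. Taken as deviations from group means on the 6 knockout arrays, r ran from -0.91 to 0.98 with a median of -0.07. Sprr2e and Sprr2f moved together (r = 0.98), as did Sprr2e and Sprr2k (r = 0.81), and Sprr2f tracked Sprr2b (r = 0.98). Sprr1b and Sprr2d, whose knockout arrays hardly differed, had r = -0.91. These are descriptions of 6 arrays that share their normalization.

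The widest spreads came from single arrays. Replicate 2 of the type II KO deviated from its group mean by -1.22 for Sprr2e, -1.86 for Sprr2k and -0.51 for Sprr2f on the log2 scale, and by 2.17 for Sprr4. Replicate 3 of the type I KO deviated by -1.54 for Sprr2i. Over the members the SD ran from 0.06 to 0.48 in the type I KO and from 0.04 to 1.61 in the type II KO, against medians over all genes of 0.15 and 0.23. Wide spreads were also seen in wild type I (0.01 to 1.23) and wild type II (0.04 to 1.33), against medians of 0.19 and 0.13. Sprr2d had the highest SD in both wild types.

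**Figure D4:**
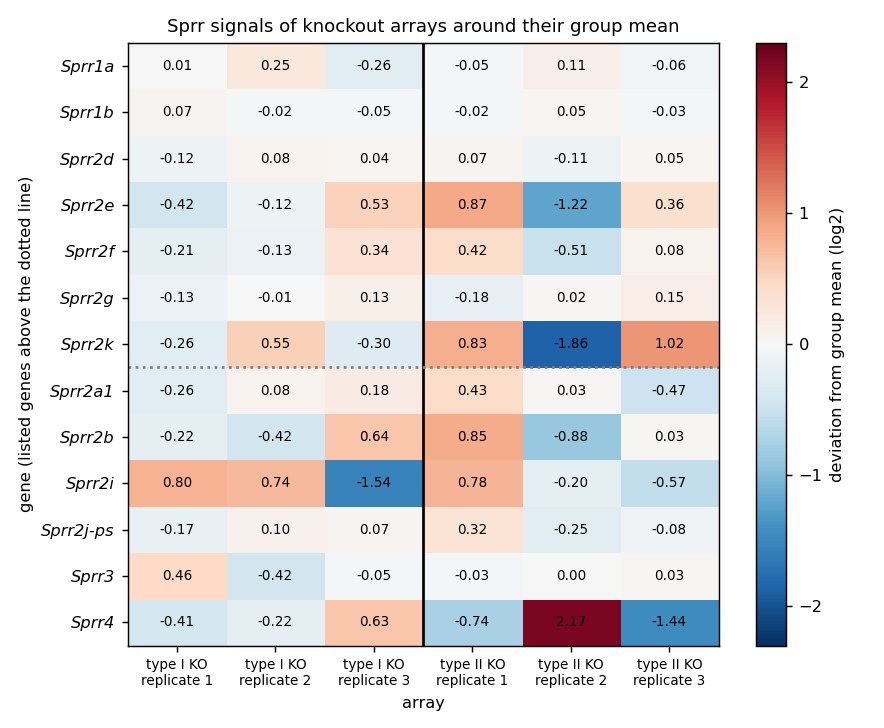
Deviation of the log2 signal of each Sprr gene from its group mean on the 6 knockout arrays (colour and printed value; 3 arrays per knockout). Replicate 2 of the type II KO is low for Sprr2e (-1.22) and Sprr2k (-1.86) and high for Sprr4 (2.17), while Sprr1b and Sprr2d vary little.

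The rise did not extend evenly to the genes beside the run. Prr9, a proline-rich neighbour on one side, had a change of 1.43 ± 0.51 in the type I KO (adjusted p = 0.0564) and of 0.24 ± 0.51 in the type II KO (adjusted p = 0.749). Ivl, which codes for the envelope scaffold involucrin on the other side, rose in the type I KO (2.69 ± 0.51, adjusted p = 0.00297) and had 0.4 ± 0.51 in the type II KO (adjusted p = 0.577). Of the 24 tested genes nearest to the run, 12 on each side, 10 rose and 1 fell in the type I KO (median 0.46), against 12.2% and 15.6% of all genes. In the type II KO 8 rose and 11 fell (median -0.34), against 15.7% and 21.8%. Chosen after their values were seen, the alarmin genes S100a8 and S100a9 on the Prr9 side rose about as far as the Sprr genes. S100a8 rose by 6.81 ± 0.27 in the type I KO and 5.89 ± 0.27 in the type II KO (adjusted p = 1.02e-08 and 6.23e-08), and S100a9 by 6.58 ± 0.21 and 6.44 ± 0.21 (7.96e-10 and 2.77e-09).

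**Figure D5:**
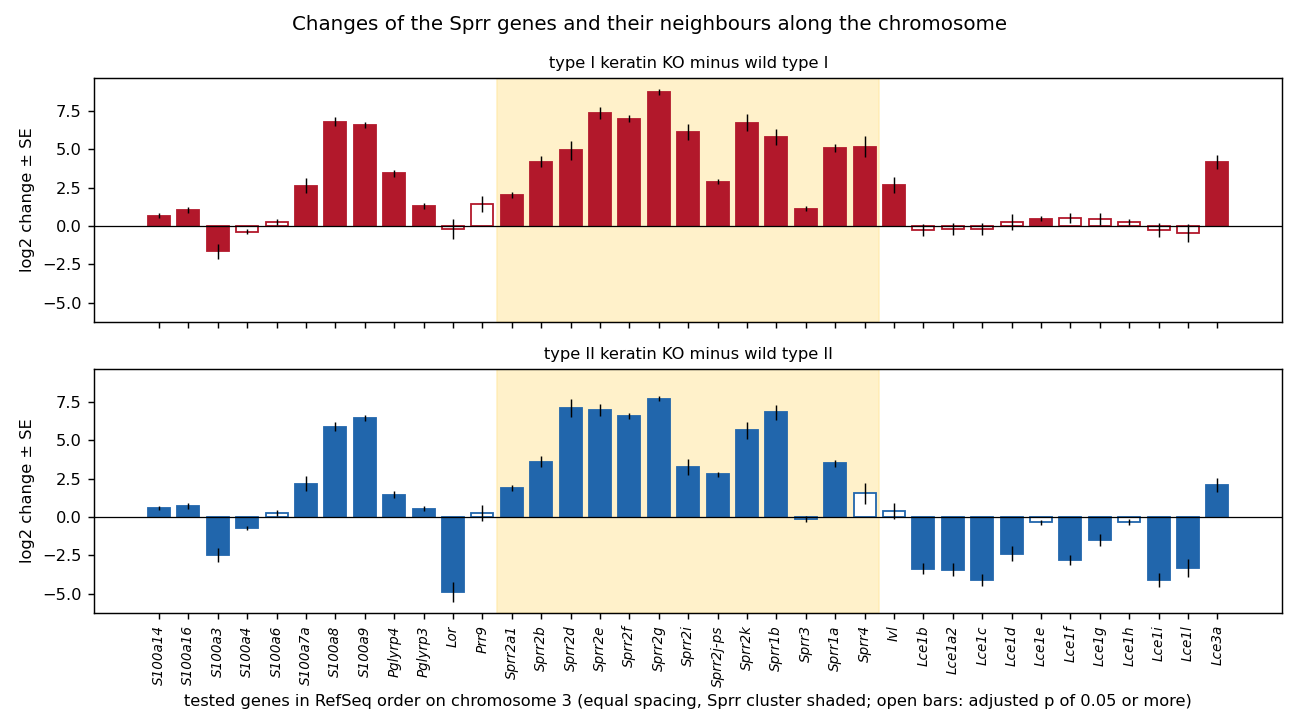
Fitted log2 change ± SE of the Sprr genes (shaded) and the 12 tested genes on each side in RefSeq order on chromosome 3, for the type I KO (top) and the type II KO (bottom); open bars had an adjusted p of 0.05 or more. Bars inside the shading point up in both panels apart from Sprr3 in the type II KO, while Lor to the left and the Lce1 genes to the right point down in the type II KO.

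SPRR proteins are built into the envelope together with other precursors and enzymes, and 32 tested genes of a cornified envelope list were read beside them. The tested neighbours on the Ivl side of the run and some on the Prr9 side are also on this list. Its counts thus overlap with those given for the neighbours. In the type I KO 15 of 32 rose and 2 fell (median 0.82), while 12.2% of all genes rose and 15.6% fell. In the type II KO 8 rose and 13 fell (median -0.34), while 15.7% of all genes rose and 21.8% fell. Among those that rose in both were Tgm1, the transglutaminase that cross-links envelope proteins (1.94 ± 0.23 in the type I KO, adjusted p = 0.000112, and 2.61 ± 0.23 in the type II KO, 9.92e-06), and Cnfn, the envelope component cornifelin (3.73 ± 0.25, 1.1e-06, and 2.53 ± 0.25, 2.15e-05). The late cornified envelope genes Lce3a, Lce3b and Lce3c and the filaggrin-like Rptn were the other top members in the type I KO, with rises of 4.18 ± 0.44, 3.87 ± 0.41, 3.89 ± 0.4 and 6.2 ± 0.66. In the type II KO they rose by 2.07 ± 0.44, 3.62 ± 0.41, 3.49 ± 0.4 and 1.81 ± 0.66. Lce3a was detected on 1 of 3 arrays of each wild type, with means of 4.9 and 4.93, near the lowest detected signal. It would not have passed the filter on dim probes without knockout arrays, so that it differs is not independent of its being tested. The Rptn call in the type II KO (limma adjusted p = 0.0491) was lost under 16 of 24 alternatives. For Rptn the type II change minus the type I change was -4.38 ± 0.94 (limma adjusted p = 0.0271). Without replicate 2 of wild type II, or replicate 2 of the type II KO, 5 of the list rose in that knockout. The count of 2 that fell in the type I KO was 1 without replicate 1 of wild type I or replicate 2 or 3 of the type I KO.

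Other envelope genes fell in the type II KO while the Sprr genes rose. Changes on the log2 scale were -6.28 ± 0.41 for Lce1m (adjusted p = 1.06e-06), -5.38 ± 0.53 for Flg2, which codes for filaggrin-2 (2.32e-05), -4.1 ± 0.39 for Lce1c (1.89e-05) and -3.37 ± 0.37 for Lce1b (4.75e-05). Flg2 was detected on only 1 of 3 type II KO arrays, with a mean of 4.83, so the size of its fall depends on the background. With no background correction it was -3.48. In the type I KO Lce1m (-2.8 ± 0.41, adjusted p = 0.000504) and Flg2 (-1.83 ± 0.53, 0.0245) fell too, the Flg2 call being lost without replicate 1 of wild type I or replicate 2 or 3 of the type I KO (adjusted p 0.0738 to 0.088). For Lce1b and Lce1c the changes there were -0.25 ± 0.37 (adjusted p = 0.652) and -0.17 ± 0.39 (0.779). The difference between the knockouts passed the test for Lce1b (-3.12 ± 0.52, 0.00781) and Lce1c (-3.93 ± 0.56, 0.00278). Over the list, the type II change was the lower one for 12 of 32 genes by this test and the higher one for 0 (25 and 0 at an unadjusted p under 0.05; median difference -2.01, against 0 over all genes, of which 1.85% were called lower).

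Of a list of regulators of Sprr promoters or of late keratinocyte differentiation, 23 were tested. They are transcription factors apart from Keap1, which was not called in either knockout. In the type I KO 9 of 23 rose and 0 fell (median 0.59), while 12.2% of all genes rose and 15.6% fell. In the type II KO 13 rose and 0 fell (median 0.66), while 15.7% of all genes rose and 21.8% fell. Of the list 0 of 23 passed the limma test of the difference, close to the 3.05% of all genes that did. At an unadjusted p under 0.05, 7 were higher and 3 lower in that test, and 0 fell in either knockout. Ehf, Pou2f3, Ppard and Maf were not detected on any array.

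Junb, a subunit of the AP-1 factor, averaged 10.12 ± 0.37 in the type I KO and 7.69 ± 0.25 in wild type I (SD, n = 3 each), a rise of 2.43 ± 0.25 (limma adjusted p = 3.52e-05), and rose by 3.03 ± 0.25 in the type II KO (6.15e-06). Fos, its AP-1 partner, rose in the type II KO (3.13 ± 0.4, 0.000139) and had 0.94 ± 0.4 in the type I KO (0.0982). Grhl3, a grainyhead-like factor of barrier formation, rose by 2.51 ± 0.21 in the type I KO (9.32e-06) and by 2.25 ± 0.21 in the type II KO (1.82e-05). Zfp750, which promotes terminal differentiation, rose by 1.8 ± 0.17 in the type I KO (1.85e-05) and by 1.56 ± 0.17 in the type II KO (4.22e-05). In the type I KO Grhl1 (1.68 ± 0.18), Klf4 (1.27 ± 0.17) and Cebpb (1.16 ± 0.14) completed the top members. These 3 rose in the type II KO as well, by 0.69 ± 0.18 (0.0105), 0.78 ± 0.17 (0.00354) and 0.74 ± 0.14 (0.00146).

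Elf3, an epithelial Ets factor, rose by 4.31 ± 0.37 in the type II KO (limma adjusted p = 8.52e-06) and by 2.68 ± 0.37 in the type I KO (0.000367). Nfe2l2 codes for Nrf2, the oxidative stress factor that binds antioxidant response elements and is named in the title of the study. It averaged 7.94 ± 0.54 in the type II KO and 6.26 ± 0.15 in wild type II (SD, n = 3 each) and rose by 1.68 ± 0.23 (limma adjusted p = 0.000206). In the type I KO Nfe2l2 had 0.71 ± 0.23 (adjusted p = 0.0358), a call that was lost on leaving out any 1 of the 6 type I series arrays (adjusted p 0.0513 to 0.123).

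The genes most like the members across arrays were sought by Pearson r with the mean scaled profile of the 7 genes over the 12 arrays, given as a description. The 8 nearest named genes were Sprr2j-ps (0.994), Il33 (0.994), Prr13 (0.992), Fabp5 (0.991), Csta3 (0.991), Tslp (0.988), Urah (0.987) and Fxyd4 (0.985). Il33 and Tslp code for cytokines that epithelia release as alarm signals, and Tslp is named in the title of the study. Tslp averaged 11.5 ± 0.34 in the type I KO and 5.71 ± 0.23 in wild type I, and 11.47 ± 0.63 in the type II KO and 5.21 ± 0.24 in wild type II (SD, n = 3 each). Csta3, a stefin A type protease inhibitor, averaged 13.54 ± 0.23 in the type I KO and 5.96 ± 0.16 in wild type I, and 13.14 ± 0.38 in the type II KO and 6.31 ± 0.77 in wild type II. Measured the same way, Sprr2i had 0.908, Sprr4 0.779 and Sprr3 0.542.

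Keratinocyte markers other than keratins moved with the Sprr genes. Of 12 tested, 7 rose in the type I KO and 10 in the type II KO, against 12.2% and 15.7% of all genes. Their summed linear signal was 16400 to 18200 in the type I KO, against 9410 to 12200 in wild type I, and 25500 to 28900 in the type II KO, against 11500 to 12500 in wild type II. In these bulk samples a change in the number of cells of a type and a change in RNA per cell cannot be told apart. The markers' median change was 1 in the type I KO and 1.4 in the type II KO on the log2 scale, beside bounded medians of 6.13 and 6.39 for the Sprr genes.

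Markers of other cell types did not move as 1 block. They are read against the 15.6% of all genes that fell in the type I KO and the 21.8% that fell in the type II KO. Of 9 fibroblast markers 7 fell in the type I KO and 5 in the type II KO (medians -0.49 and -0.52), and of 5 adipocyte markers 5 fell in each (-1.47 and -1.81). Of 8 muscle markers 3 fell in the type I KO and 7 in the type II KO. There, 4 of 5 macrophage, 4 of 4 mast cell and 3 of 4 melanocyte markers also fell, with medians of -0.57, -2.45 and -2.27, beside medians of -0.1, -0.25 and -1.16 in the type I KO, where none passed limma's test. Of 5 endothelial markers 1 fell in the type I KO and 0 passed limma's test in the type II KO, also at an unadjusted p under 0.05 (medians -0.34 and -0.2). Of 4 neutrophil markers tested, Cxcr2 rose in both knockouts, Csf3r rose in the type II KO and Camp fell in both. Cxcr2 was undetected in both wild types and passed the filter on dim probes through knockout arrays alone. It was at least 1.59-fold higher in the type I KO and at least 1.28-fold in the type II KO, and these calls are not independent of its being tested. The 4 summed to 170 to 184 in the type I KO, against 171 to 228 in wild type I, and to 133 to 221 in the type II KO, against 244 to 371 in wild type II, with Elane undetected on every array. Of markers of simple and intestinal epithelium 1 was tested, with Vil1 and Cdx2 undetected on every array. The tested marker, Krt8, is itself a type II keratin. It fell in the type II KO (-1.8 ± 0.46, limma adjusted p = 0.00973) and had -0.82 ± 0.46 in the type I KO (0.211). In the type II KO a change in this cell type and the keratin deletion cannot be told apart by Krt8. Krt8 was also called higher in wild type II than in wild type I, by 2.28. The part of tissue makeup in the Sprr values was not tested.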

How the data were processed

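Per the file headers, the deposited signal table gives every probe's average bead intensity on each array without normalization, and the authors' detection p-value beside it. How that p-value was computed is not stated in the labels or headers. A processed table of intensities, also deposited by the authors, was by its values linear, background-subtracted and quantile normalized (array medians 16.3 to 16.4, with 25.2% to 25.3% of values negative) and served only as an alternative. Depth is unknown for arrays, and 3 arrays per group limit the precision.

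Signals were background-corrected by normexp, with an offset of 16 and the negative controls estimated through the detection p-values, then quantile normalized as log2 values (limma 3.58.1, R 4.3.3). The platform annotation gave 1 gene symbol to 23978 of 25697 probes, several to 0 and none to 1719; RefSeq identifiers (GRCm38.p6) changed 0 symbols and lacked 16. Probes with a detection p under 0.05 on at least 3 arrays entered (14744), and the brightest probe stood for each gene, giving 11163 features (called genes), 10280 of them named. A single linear model with group as its factor was fitted to all 12 arrays (8 residual degrees of freedom), with p-values adjusted by Benjamini-Hochberg over all features. "Rose", "fell" and "called" mean an adjusted p under 0.05. Changes are log2 ± SE. Contrasts were taken of each knockout against the wild type of its series, of the type II change minus the type I change, and of wild type II minus wild type I. The fit was tested on simulated data. Promoters were aligned with Biopython 1.88.

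Named were the 7 listed genes with every probe, every other Sprr gene measured, the called genes of each list with the lowest adjusted p (at most 6 per knockout), the 8 named genes nearest in pattern, the keratins Krt14, Krt10, Krt5 and Krt1, undetected markers and the chromosome neighbours. Among the neighbours, Lor in a caption and S100a8 and S100a9 were named after their values were seen. So were Krt8, Keap1 and the neutrophil markers Cxcr2, Csf3r and Camp. The members and lists were chosen with earlier results of these data known. Alternatives covered background correction, normalization, filter, probe choice, samples in the fit, array weights, blocks and leaving out each array.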

Additional observations from a re-analysis of the deposited data

Results flagged for a closer look

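Sprr1a, Sprr2g and Sprr3 are given a closer look because the fitted difference between the knockouts' changes had an adjusted p under 0.05. The type II change minus the type I change was -1.58 ± 0.34 on the log2 scale for Sprr1a (limma adjusted p = 0.0296), -1.03 ± 0.23 for Sprr2g (0.036) and -1.27 ± 0.25 for Sprr3 (0.0198). Sprr1a was higher in wild type II than in wild type I by 0.93 ± 0.24 (adjusted p = 0.085), and lower in the type II KO (mean 11.02) than in the type I KO (mean 11.66). For Sprr2g both wild types were below detection, and the means were 12.33 in the type II KO and 13.36 in the type I KO. Sprr3 was detected on the 3 type I KO arrays alone, at signals of 5.96, 5.08 and 5.44, close to the lowest detected signal, and it entered the test through these arrays. For Sprr2g the fitted difference therefore rests on the knockout levels, its wild types being known only as below background. For Sprr3 it rests mostly on arrays below background. The part that the series, as a batch, has in these values was not tested.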

How the results depend on the processing

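The rise of 7 of 7 Sprr genes in each knockout held under all 24 alternatives, 12 settings and 12 left-out arrays. With no background correction the fitted changes were 2.97 to 6.58 and with an offset of 50 they were 3.27 to 7.48, which moved 11 and 8 of 14 of them by over 1.5 times; other settings moved 0. The 2 genes called for a difference between the knockouts became 0 with median scaling, 0 with no filter, 1 with the authors' processed values, 1 with the replicate block and 0 to 2 with 1 array left out. Under median scaling the adjusted p was 0.059 for Sprr1a and 0.22 for Sprr2g, and with no filter 0.0647 and 0.055. The deviations of knockout and wild-type arrays with the same replicate number correlated at 0.17, 0.06 and 0.36 in the type I series and 0.08, 0.03 and 0.14 in the type II series, not each over 0.1, so the numbers were not taken as pairs. The replicate block left Sprr1a called (adjusted p = 0.0413) and Sprr2g at 0.0701, with 7 of 7 genes called higher in each knockout. Sample titles open with a number that knockout and wild-type arrays share and whose meaning the labels do not give. In the type I series the 5 pairs with the same title number correlated at 0.06 to 0.36 and the 4 others at -0.28 to -0.17, a hint from the data; in the type II series the 3 were at 0.03 to 0.14 and the 6 others at -0.16 to 0.07. With the title number as a block 7 of 7 genes rose in each knockout and the same 2 differences passed (adjusted p = 0.0257 for Sprr1a and 0.0411 for Sprr2g). Sprr3 had a difference of -0.6 (0.0695) with the offset of 50. The difference for Sprr2e reversed to 0.01 with array weights and to 0.19 without replicate 2 of the type II KO (-0.85 to 0.19 over the left-out arrays). Wild types differed for 1 gene, Sprr1a, with array weights (0.98, adjusted p = 0.0368) and for 0 to 1 with 1 array left out. Median scaling moved the all-gene median of that contrast to 0.11. Cornified envelope genes that fell in the type I KO numbered 1 with no filter and 1 to 2 with 1 array left out, and those that rose in the type II KO 5 to 9. For the regulators that fell, the main count of 0 became 1 with array weights in the type I KO, and in the type II KO 1 with every probe as its own feature and 0 to 1 with 1 array left out. In the type II KO Ivl reversed to -0.25 without replicate 2 of wild type II and -0.1 without replicate 3 of the knockout (-0.25 to 0.83 over the left-out arrays), and Prr9 to -0.08 without replicate 3 of wild type II and -0.1 without replicate 1 of the knockout (-0.1 to 0.69). Prr9 in the type I KO passed the test under 7 of 24 alternatives (adjusted p 0.0223 to 0.211). Sprr4 in the type II KO passed with the title block (adjusted p = 0.0362). The cause of these changes was not tested. A slide block was not run, as the columns name no slide. Signals below the lowest detected one limit 4 members to bounds.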

Other observations

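Sprr2a1 was the only Sprr gene with a pair of probes, and they did not give the same change. The brighter probe rose by 2.05 ± 0.2 in the type I KO and 1.89 ± 0.2 in the type II KO. The dimmer one had log2 signals of 5.81, 5.45 and 6.09 in the type I KO, against 4.81, 5.02 and 5.09 in wild type I, a change of 0.81 ± 0.18 (limma adjusted p = 0.00659 with every probe as its own feature). In the type II KO it had 5.44, 5.57 and 5.12, against 5.24, 4.94 and 4.93 in wild type II, a change of 0.34 ± 0.18 (adjusted p = 0.164). The dimmer probe lay close to the lowest detected signal, and which transcripts each probe matches was not tested.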
